A study of Mus musculus with 6 samples.

Results

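Expression of 10 genes of the mesendoderm was examined in RNA-seq libraries of murine ESCs depleted of cohesin or condensin subunits. The genes are T, Eomes, Mixl1, Gsc, Foxa2, Lhx1, Mesp1, Tbx6, Evx1 and Cer1. They were given as a list of names, and each was represented by the RefSeq row with the most counts over the 6 libraries. They are 10 of 21115 genes in the data, and 9 of them had a mean of at least 10 counts over the 6 libraries, as did 14361 genes in all. Cer1, with a mean of 2.67 counts, was too low to judge. Cer1 is also the only member that is not a transcription factor, since it encodes a secreted antagonist of Nodal, BMP and Wnt signals.

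The cells were V6.5 ESCs, a mouse line of C57BL/6-129 background. All 6 libraries came from cells infected with a lentivirus that carried an shRNA, grown for 24 hours and then selected with puromycin at 0.5 µg/ml for 48 hours and at 1 µg/ml for another 48 hours. These doses are those of the sample labels, and the paper gives a different puromycin concentration. The control was 1 library with a hairpin against GFP. The cohesin subunit SMC1 was targeted in 1 library. The condensin II subunit CAPH2 was targeted in 2 libraries, CAPH2 #1 and CAPH2 #2, with a different hairpin in each, and SMC2, which both condensin complexes contain, was likewise targeted in 2 libraries, SMC2 #1 and SMC2 #2. The CAPH2 numbers follow the clone identifiers of the hairpins. The sample labels also call these clones #3 and #4, and those names belong to other CAPH2 hairpins elsewhere in the study. The cells had been grown on irradiated mouse embryonic fibroblasts and were passaged off them, onto gelatin, before RNA was taken. No source used here says whether the libraries came from separate cultures.

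Mesendoderm is the shared precursor of mesoderm and definitive endoderm. It forms in the primitive streak of the gastrulating embryo under Nodal, Wnt and BMP signals, and the same signals turn on streak genes in ESCs that leave pluripotency. T and Eomes are T-box factors at the head of this program, Mixl1, Gsc, Lhx1 and Evx1 are homeodomain factors of the streak and its derivatives, Foxa2 marks the anterior streak and endoderm, Mesp1 marks the earliest cardiac and cranial mesoderm, and Tbx6 directs paraxial mesoderm.

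The promoter sequences below belong to the 2 members with the most counts among those that were higher in the SMC1 library, T and Evx1, and to the 2 judged members that were lowest in it relative to GFP, Lhx1 and Mesp1. Each run holds the 250 bases before the RefSeq transcription start, read 5′ to 3′ on the strand of the gene, from assembly GRCm38.p6, while the expression files use mm9. T lies on the plus strand (chr17:8434173-8434422), Evx1 on the plus strand (chr6:52313248-52313497), Lhx1 on the minus strand (chr11:84525535-84525784) and Mesp1 on the minus strand (chr7:79793591-79793840). Capitals mark the letters of a searched motif, which are the SMAD motif CAGACA read on the opposite strand in Evx1 and the TCF/LEF motif CTTTGAT in Mesp1.
T promoter: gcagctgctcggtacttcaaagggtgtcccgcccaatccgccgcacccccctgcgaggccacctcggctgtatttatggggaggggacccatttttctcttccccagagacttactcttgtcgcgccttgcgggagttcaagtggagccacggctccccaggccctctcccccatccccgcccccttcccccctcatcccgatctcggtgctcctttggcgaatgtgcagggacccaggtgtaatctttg
Evx1 promoter: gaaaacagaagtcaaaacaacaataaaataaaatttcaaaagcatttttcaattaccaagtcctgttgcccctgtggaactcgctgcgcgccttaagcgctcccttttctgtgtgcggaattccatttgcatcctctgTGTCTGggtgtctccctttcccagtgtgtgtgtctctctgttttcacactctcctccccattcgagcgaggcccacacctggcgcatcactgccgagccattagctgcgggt
Lhx1 promoter: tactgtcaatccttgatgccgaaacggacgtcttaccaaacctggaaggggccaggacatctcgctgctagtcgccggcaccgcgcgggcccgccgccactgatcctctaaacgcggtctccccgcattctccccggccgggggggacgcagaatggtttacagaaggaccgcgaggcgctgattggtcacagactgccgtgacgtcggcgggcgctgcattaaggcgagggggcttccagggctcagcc
Mesp1 promoter: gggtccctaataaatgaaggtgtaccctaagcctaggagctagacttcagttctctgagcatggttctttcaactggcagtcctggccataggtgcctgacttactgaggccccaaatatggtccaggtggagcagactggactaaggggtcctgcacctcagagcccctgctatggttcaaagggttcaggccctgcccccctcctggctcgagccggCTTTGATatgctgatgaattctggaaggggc
The promoters differ in composition. The Lhx1 run has 26 CpG dinucleotides and 64.8% GC, and the T run has 14 CpG and 62.8% GC. Evx1 has 10 CpG and 49.6% GC, and Mesp1 has only 2 CpG at 55.2% GC. The median over 32544 RefSeq promoter windows was 6 CpG and 52.4% GC.

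Motifs for factors of the Wnt, T-box and Nodal routes were searched on both strands from 250 bases before to 50 bases after the start, in 11 windows of 9 members (the table used has no Mixl1 entry). CTTTGAT or CTTTGTT, the TCF/LEF letters, stood in the Mesp1 window 31 bases before the start and in 1 of 3 Foxa2 windows 15 bases after it, and 9.33% of all windows hold them. TCACACC, the T-box letters, stood in the Mesp1 window 6 bases after the start, against 3.95% of all windows. CAGACA, the SMAD letters, stood in the Evx1 and Cer1 windows, against 20.9% of all windows. ATCCACA and ATACACA, the FOXH1 letters, were in none of the 11 windows and in 6.81% of all. A match is a string of letters and not a measured binding site, and the T and Lhx1 windows hold none of these strings.

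The deposited values are counts of exonic reads per RefSeq transcript and RPKM, which scales the count to exon length and to the size of the library. The RPKM values rest on 18823247 to 23324537 reads per library. A gene was called changed against GFP where the RPKM ratio was at least 2-fold in size and its 95% exact conditional binomial interval excluded 1, and for CAPH2 and SMC2 where this held with both hairpins in the same direction. "Rose" and "fell" are used below for called genes. The GFP and SMC1 groups have 1 library each, so these comparisons carry no p-value, and all intervals cover counting error only. The targets were lower in their own libraries: the log2 change was -1.33 for Smc1a with SMC1, -2.25 and -1.52 for Ncaph2 with CAPH2 #1 and CAPH2 #2, and -0.50 and -0.48 for Smc2 with SMC2 #1 and SMC2 #2.

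The label of the cells was checked against their markers. Pou5f1, a core pluripotency factor, had an RPKM between 785 in the SMC1 library and 1285 in the GFP library. The other 5 ESC markers examined, Sox2, Nanog, Zfp42, Esrrb and Klf4, fell with SMC1. Esrrb, for example, had an RPKM of 210 in GFP and 21.5 with SMC1. The members were low compared with Pou5f1. T had the highest level of the 10, at the 67.8th percentile of mean RPKM over 21115 genes, followed by Eomes at the 56.9th. Gsc, Mesp1, Lhx1, Evx1, Mixl1 and Tbx6 lay between the 47.4th and the 39.6th percentile, Foxa2 at the 35.4th and Cer1 at the 25.9th. In bulk RNA of this kind a change in the number of cells that express a gene and a change in its RNA per cell cannot be told apart.

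**Figure D1:**
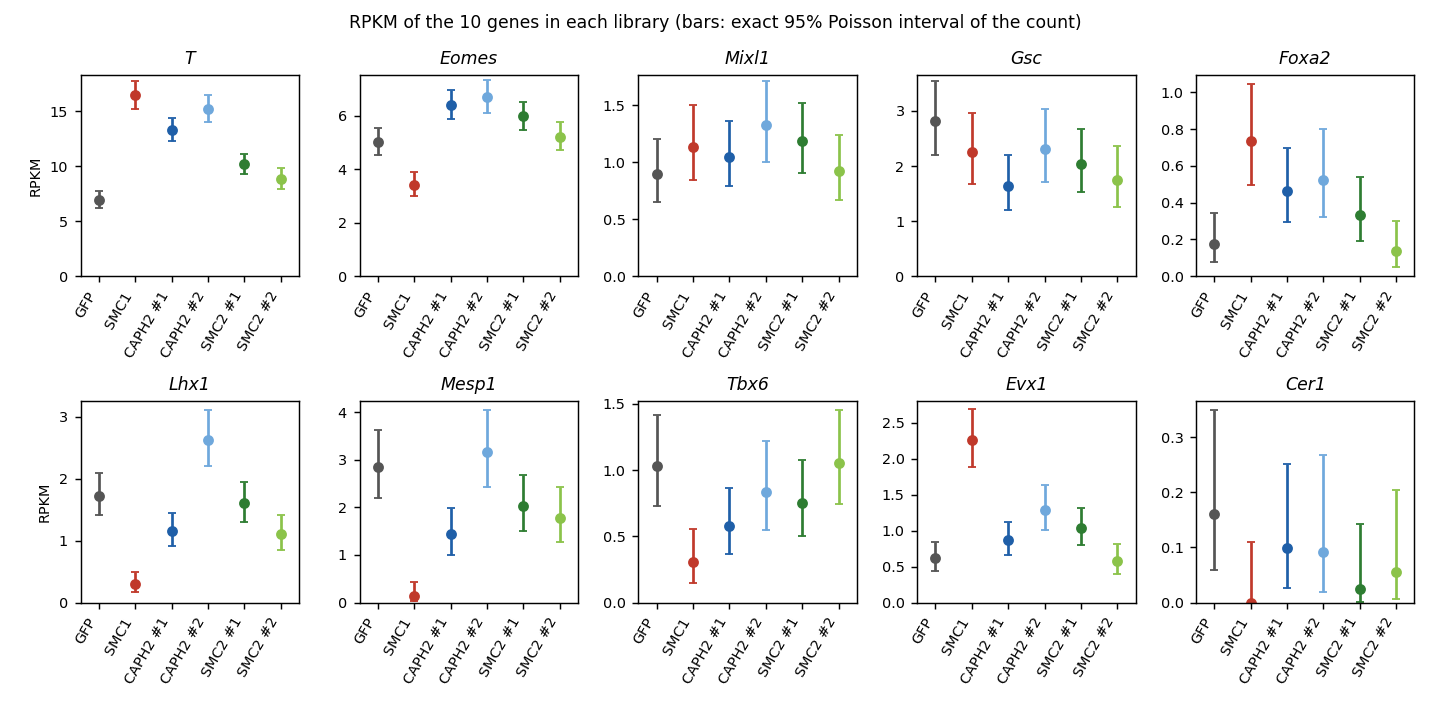
RPKM (y axis, linear, from 0) of each of the 10 genes in the 6 libraries (x axis), with the exact 95% Poisson interval of the count as the bar. T lies lowest in GFP at 6.93 and highest with SMC1 at 16.4, while Lhx1 and Mesp1 lie lowest with SMC1 at 0.303 and 0.145.

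With SMC1 depletion the members did not move together. T, Foxa2 and Evx1 rose, Lhx1, Mesp1 and Tbx6 fell, and Eomes, Mixl1 and Gsc were not called. Thus 3 of 9 judged members rose, against 12.0% of all 14361 genes tested, and 3 of 9 fell, against 8.40%. The median log2 change of the 9 members was -0.31, and that of all genes tested was 0.018.

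T (NM_009309, Brachyury, mm9 chr17:8627288-8635361, plus strand) activates mesoderm genes in the streak and notochord. It had 305 counts in the GFP library and 646 with SMC1, 635 and 585 with CAPH2, and 468 and 369 with SMC2, the hairpins given in the order #1 and #2 here and below. In RPKM these are 6.93, 16.4, 13.3, 15.2, 10.2 and 8.84. The GFP library was the lowest of the 6, as it was for 2 of 9 members (T and Mixl1) and 28.0% of all genes tested. The SMC1 library was the highest, as for 37.5% of genes. Both CAPH2 libraries lay above both SMC2 libraries, as for 17.3% of genes. The share of genes with the whole order, from GFP through SMC2 and CAPH2 to SMC1, was not counted. The ratio to GFP was 2.37 with SMC1 (2.07 to 2.73), a log2 change of 1.25. It was 1.92 (1.67 to 2.21) and 2.19 (1.91 to 2.53) with CAPH2, so that the 2-fold limit was passed with CAPH2 #2 but not with CAPH2 #1, and T was not called for CAPH2. The mean of both hairpins gave a log2 change of 1.04, with an SD of 0.14 between the hairpins (n = 2). With SMC2 the ratio was 1.47 (1.27 to 1.70) and 1.28 (1.09 to 1.49), a log2 change of 0.45 (SD 0.14, n = 2) that is under 2-fold although each interval excludes 1. The top of the order was not resolved, since the ratio of CAPH2 #2 to SMC1 was 0.925 with an interval from 0.826 to 1.04.

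Eomes (NM_010136, mm9 chr9:118387307-118395249, plus strand) is needed for definitive endoderm and for exit from pluripotency in the streak, and is also a trophoblast factor. Its RPKM was 5.03 in GFP, 3.43 with SMC1, 6.42 and 6.69 with CAPH2, and 5.99 and 5.22 with SMC2, from 245 to 556 counts. Here the SMC1 library was the lowest and the 4 condensin libraries were all above GFP, with both CAPH2 hairpins above both SMC2 hairpins. The ratio to GFP was 0.682 with SMC1 (0.580 to 0.802), and 1.28 (1.12 to 1.46) and 1.33 (1.16 to 1.52) with CAPH2. None reached 2-fold, so Eomes was not called in any comparison. The SMC1 level lay under each condensin library beyond counting error, the nearest being SMC2 #2 at 1.52 times the SMC1 level (1.30 to 1.79). T and Eomes, the paired T-box factors of the early streak, thus stood apart with SMC1, T being highest and Eomes lowest of the 6 libraries there. The SMC1 library was the highest for 37.5% of all genes tested and the lowest for 34.8%. With scaling to spike-in RNA, described below, the log2 change of Eomes with SMC1 was 0.31.

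Tbx6 (NM_011538, mm9 chr7:133924997-133929062, plus strand) had 38 counts in GFP, 10 with SMC1, 23 and 27 with CAPH2, and 29 and 37 with SMC2, or RPKM values of 1.03, 0.303, 0.575, 0.836, 0.751 and 1.06. The SMC1 library was the lowest. Tbx6 fell with SMC1 to 29.5% of the GFP level (13.1 to 60.2). It was not called with CAPH2, at ratios of 0.558 (0.318 to 0.962) and 0.812 (0.477 to 1.37), or with SMC2, at 0.729 (0.434 to 1.21) and 1.03 (0.635 to 1.66). At these counts CAPH2 #1 could not be separated from SMC1, with a ratio of 1.90 (0.868 to 4.46).

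Mixl1 (NM_013729, mm9 chr1:182623181-182627165, minus strand), a homeodomain factor of the streak induced by Nodal, had 43 to 61 counts in the 6 libraries and an RPKM of 0.894 in GFP, 1.14 with SMC1, 1.05 and 1.32 with CAPH2, and 1.18 and 0.921 with SMC2. GFP was the lowest library, but every interval of the ratio to GFP included 1, among them those of SMC1 at 1.27 (0.831 to 1.95) and of CAPH2 #2 at 1.48 (0.982 to 2.25). A change of Mixl1 was not detectable at this depth, and the interval of CAPH2 #2 also leaves room for a change past 2-fold.

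Gsc (NM_010351, mm9 chr12:105709419-105711446, minus strand), the organizer homeodomain repressor, was highest in the GFP library. The RPKM was 2.81 in GFP, 2.26 with SMC1, 1.64 and 2.31 with CAPH2, and 2.04 and 1.75 with SMC2, from 42 to 71 counts. All 5 depleted libraries lay under GFP, and GFP was the highest library for 29.2% of all genes tested. The interval of the ratio excluded 1 with CAPH2 #1 at 0.585 (0.393 to 0.862) and with SMC2 #2 at 0.624 (0.415 to 0.926), but not with the other hairpin of either target or with SMC1 at 0.804 (0.550 to 1.17). Gsc was not called in any comparison.

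Evx1 (NM_007966, mm9 chr6:52263492-52268372, plus strand) is a homeodomain factor of the posterior streak. It had 38 counts in GFP, 125 with SMC1, 58 and 70 with CAPH2, and 67 and 34 with SMC2, or RPKM values of 0.614, 2.26, 0.864, 1.29, 1.03 and 0.579. The SMC1 library stood above all others, and the nearest, CAPH2 #2, was at 0.572 of its level (0.421 to 0.773). Evx1 rose 3.68-fold with SMC1 (2.54 to 5.44). The CAPH2 hairpins differed from each other, with ratios to GFP of 1.41 (0.920 to 2.18) and 2.11 (1.40 to 3.21), and so did the SMC2 hairpins, with 1.68 (1.11 to 2.58) and 0.943 (0.576 to 1.54), so neither target gave a call. An exon of Evx1 overlaps an exon of an antisense gene, 5730457N03Rik, and the TruSeq kit used does not mark strand, so reads from this overlap cannot be assigned to either gene.

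Lhx1 (NM_008498, mm9 chr11:84332881-84339036, minus strand), a LIM homeodomain factor of the anterior streak and organizer, had 102 counts in GFP and only 16 with SMC1, 74 and 136 with CAPH2, and 99 and 62 with SMC2. The RPKM values are 1.72, 0.303, 1.15, 2.63, 1.60 and 1.10. Lhx1 fell with SMC1 to 17.6% of the GFP level (9.67 to 29.9), and each of the other 5 libraries was above SMC1 beyond counting error. The CAPH2 hairpins moved in opposite directions from GFP, to 0.669 (0.489 to 0.912) and to 1.52 (1.17 to 1.99) of its level. CAPH2 #2 was 2.28 times CAPH2 #1 (1.70 to 3.06), so that the mean of the pair, a log2 change of 0.13 with an SD of 0.84 (n = 2), describes neither library. With SMC2 the ratios were 0.927 (0.696 to 1.23) and 0.641 (0.460 to 0.887).

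Mesp1 (NM_008588, mm9 chr7:86937128-86938476, minus strand) is the bHLH factor that starts the cardiac program in nascent mesoderm. It had 66 counts in GFP, 3 with SMC1, 36 and 64 with CAPH2, and 49 and 39 with SMC2, or RPKM values of 2.85, 0.145, 1.43, 3.16, 2.02 and 1.78. The SMC1 level was 5.09% of GFP (1.02 to 15.5), the farthest from GFP of the 9 judged members in any library, and Mesp1 fell by this rule. The 3 counts in that library set the width of the interval. The CAPH2 hairpins again differed, at ratios of 0.503 (0.326 to 0.767) and 1.11 (0.774 to 1.59), and CAPH2 #2 was 2.20 times CAPH2 #1 (1.44 to 3.41). With SMC2 the ratios were 0.709 (0.480 to 1.04) and 0.623 (0.408 to 0.939), a log2 change of -0.59 (SD 0.13, n = 2) that is not called. Mesp2, its neighbour and relative, had 49 counts in GFP and 29 with SMC1 and was not called.

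Foxa2 (NM_010446, mm9 chr2:147868614-147872705, minus strand) is a forkhead factor of the anterior streak, node and endoderm. Its summed counts were the smallest of the judged members, with 8 in GFP, 30 with SMC1, 23 and 21 with CAPH2, and 16 and 6 with SMC2, which are RPKM values of 0.175, 0.734, 0.464, 0.525, 0.334 and 0.138. Foxa2 rose 4.20-fold with SMC1, with a wide interval from 1.88 to 10.6, and it rose with both CAPH2 hairpins, 2.65-fold (1.15 to 6.86) and 3.00-fold (1.28 to 7.84). It was the only member called with CAPH2 (1 of 9, against 0.689% of all genes tested that rose with both hairpins and 0.279% that fell). The 0.689% is 99 of 14361 genes at all levels, and most of the 99 were low in GFP. Once genes under 1 RPKM in GFP were dropped, Foxa2 among them, 10 of 12199 rose with CAPH2. The share that rose among genes as low as Foxa2 was not counted. With SMC2 the ratios of 1.91 (0.771 to 5.16) and 0.791 (0.226 to 2.60) lay on either side of 1. All of these ratios divide by the 8 counts of the GFP library.

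Cer1 (NM_009887, mm9 chr4:82527655-82531055, minus strand) had 6 counts in GFP, 0 with SMC1, 4 and 3 with CAPH2, and 1 and 2 with SMC2. No comparison of Cer1 is given, and the 0 in the SMC1 library still allows 3 counts there.

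**Figure D2:**
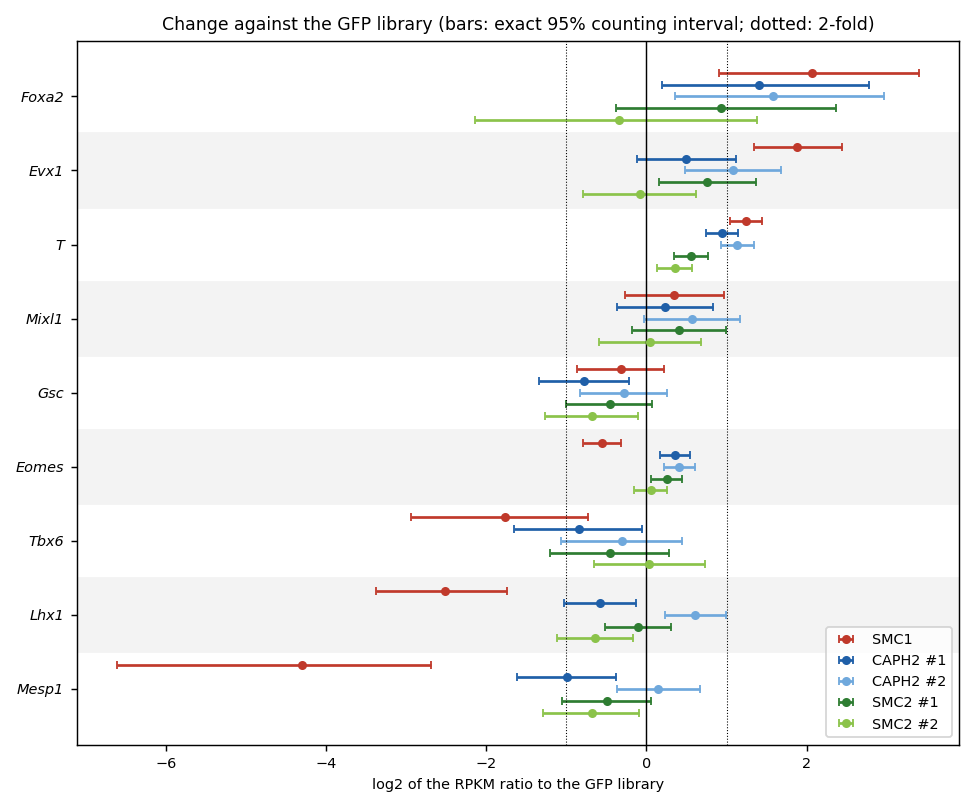
Log2 of the RPKM ratio to the GFP library (x axis) for the 9 judged members (rows), 1 point per depleted library with its exact 95% counting interval, and dotted lines at 2-fold. The SMC1 points run from 2.07 for Foxa2 to -4.30 for Mesp1, and the CAPH2 points of Lhx1 fall on either side of 0 at -0.58 and 0.61.

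Among the condensin comparisons few members passed the rule. No member was called with SMC2, where 0.620% of genes tested rose and 0.383% fell with both hairpins. The targets were not lowered to a like degree. Smc2 had an RPKM of 26.6 in GFP and of 18.8 and 19.1 with SMC2. Ncaph2 had 80.2 in GFP and 16.9 and 27.9 with CAPH2. The part of this in the calls was not tested. Taken alone, CAPH2 #2 gave 3 calls, T, Evx1 and Foxa2, all higher, against 1.09% of genes, and CAPH2 #1 gave Foxa2 alone, against 2.82%. Taken alone, neither SMC2 hairpin gave a member that was higher, against 1.21% of genes with SMC2 #1 and 1.45% with SMC2 #2. No member was called lower with any of the 4 condensin hairpins, against 1.80% of genes with CAPH2 #1, 0.529% with CAPH2 #2, 1.36% with SMC2 #1 and 0.682% with SMC2 #2.

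SMC2 against CAPH2 is the comparison with 2 libraries in each group, and it was tested with the edgeR quasi-likelihood test over 14320 genes. Its p-values measure the spread between hairpins of a target. The test called 1 gene at an adjusted p under 0.05 (0.00698% of genes), Smc2 itself, and no member, with 437 genes at an unadjusted p under 0.05. Smc2 had an RPKM of 26.6 in GFP, 42.3 and 40.6 with CAPH2, and 18.8 and 19.1 with SMC2. The test missed the other target, Ncaph2 (log2 estimate 1.54, adjusted p = 0.0565, edgeR). The lack of a member call therefore does not show equal levels. T was lower with SMC2 than with CAPH2 by edgeR's log2 estimate of -0.57 (SE 0.12, unadjusted p = 0.000651, Benjamini-Hochberg adjusted p = 0.999), and Foxa2 by -1.02 (unadjusted p = 0.0397, adjusted p = 0.999). The other 7 judged members had estimates from -0.44 for Lhx1 to 0.37 for Tbx6 and the same adjusted p. For T, Eomes and Foxa2 both CAPH2 libraries lay above both SMC2 libraries, an order held by 17.3% of all genes tested, and for no member was it the other way round (13.3%). Leaving out CAPH2 #1 gave an adjusted p of 0.000505 for T and 0.0182 for Lhx1 in the edgeR test, and leaving out CAPH2 #2 gave 0.0179 for T, while without SMC2 #1 or SMC2 #2 the adjusted p of T was 0.578 and 1.00. In those fits the lone library is assumed to vary like the other target's pair.

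The SMC1 library was the highest of the 6 for 3 of 9 members (T, Foxa2 and Evx1, against 37.5% of all genes tested) and the lowest for 4 (Eomes, Lhx1, Mesp1 and Tbx6, against 34.8%). It thus stood at an end of the range for most genes in the data, members or not. Since each change above rests on the same GFP library, the SMC1 library was also set against the 4 condensin libraries with their counts pooled. This alternative was chosen after seeing the data. By that reference Evx1 (log2 change 1.27) and Foxa2 (1.01) were still called higher, 2 of 9 members against 1242 of 14361 genes tested. Mesp1 (-3.82), Lhx1 (-2.39) and Tbx6 (-1.39) were still called lower, 3 of 9 members against 822 of 14361 genes. T, at 0.47, lost its call, but T was itself above GFP in all 4 of these condensin libraries, at ratios from 1.28 to 2.19.

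The libraries also carried a different share of ERCC RNA, synthetic transcripts added in proportion to cell number. ERCC rows took 2.32% of the reads in GFP, 1.27% with SMC1, 1.50% and 2.40% with CAPH2, and 1.49% and 1.57% with SMC2. Scaling to these counts raised the SMC1 change of every gene by 0.86 on the log2 scale, and that of the CAPH2 and SMC2 means by a median of 0.33 and 0.60. T (2.11), Evx1 (2.75) and Foxa2 (2.93) remained called higher with SMC1 on that scale and Mixl1 (1.21) joined them. These are 4 of 9 judged members, against 6066 of 14361 genes tested. Lhx1 (-1.64) and Mesp1 (-3.43) remained called lower, 2 of 9 members against 388 of 14361 genes. Tbx6 (-0.90) came under 2-fold, and Eomes (0.31) and Gsc (0.55) changed sign. With 1 library on each side the SMC1 shift is the same for every gene, so the order of the members there cannot change. TMM and DESeq2 size factors moved the median of all genes by 0.03 or less.

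**Figure D3:**
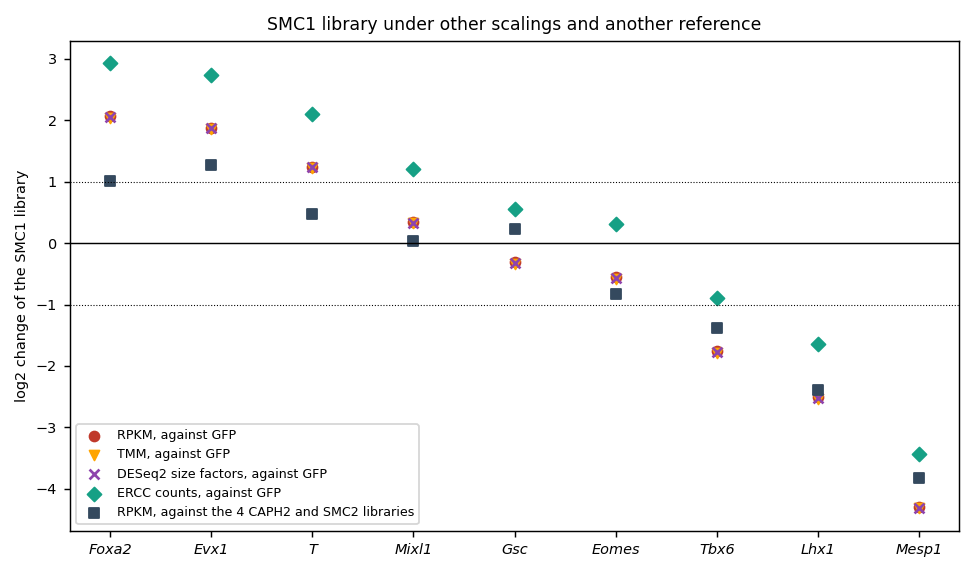
Log2 change of the SMC1 library (y axis) for the 9 judged members (x axis), with dotted lines at 2-fold. The reference is GFP by RPKM, TMM, DESeq2 size factors or ERCC counts, or the 4 condensin libraries pooled by RPKM. The ERCC points lie 0.86 above the RPKM points, and T drops from 1.25 to 0.47 with the condensin libraries as reference.

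The signals that act on these genes were examined by lists of genes, chosen with earlier results of these data known. Over all genes tested, 12.0% rose and 8.40% fell with SMC1, 0.689% and 0.279% with CAPH2, and 0.620% and 0.383% with SMC2. Of 14 Wnt pathway genes, all tested, 6 rose with SMC1 and none fell, with a median log2 change of 0.95. They were the ligands Wnt3 (1.91) and Wnt8a (2.17), the co-receptor Lrp6 (1.04), the nuclear factor Lef1 (1.69) and the common targets Axin2 (1.36) and Sp5 (1.11). The RPKM of Wnt8a, a ligand of the posterior streak, was 1.84 in GFP, 8.25 with SMC1, 8.55 and 5.46 with CAPH2, and 3.97 and 4.48 with SMC2. It was higher than GFP in all 5 depleted libraries, and it rose with CAPH2 (1.93) and with SMC2 (1.20) as well. Wnt3, the ligand that starts streak formation, had an RPKM of 1.82 in GFP, 6.83 with SMC1, 5.42 and 4.03 with CAPH2, and 3.25 and 2.99 with SMC2. Wnt3 (1.38) and the antagonist Dkk1 (1.28) also rose with CAPH2, where the list median was 0.34. With SMC2 Wnt8a was the only gene of the list called and the median was 0.30. Lef1 was different, with an RPKM of 9.15 in GFP, 29.5 with SMC1 and 7.79 to 9.28 in the condensin libraries. The genes of the list with the most counts, Ctnnb1 (0.091), which encodes the Wnt effector beta-catenin, and the receptor gene Fzd7 (-0.053), were near the GFP level with SMC1.

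Of 15 genes of the Nodal and Activin pathway 14 were tested, and only Lefty1, a Nodal target and inhibitor, rose with SMC1 (1.04, from an RPKM of 171 to 351). None fell, and none was called with CAPH2 or SMC2. Tdgf1, the Nodal co-receptor with the most counts of the list, had a log2 change of -0.079 with SMC1. Nodal itself had an RPKM of 42.3 in GFP, 50.1 with SMC1 and 41.1 to 54.4 in the condensin libraries. The list median was 0.35 with SMC1, -0.0067 with CAPH2 and -0.033 with SMC2.

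Among 10 BMP and FGF genes, the receptor Bmpr2 (1.88) and the epiblast ligand Fgf5 (1.41) rose with SMC1 and Fgf4 (-2.28), the ligand that ESCs themselves make, fell. The receptor gene Fgfr1 (0.34) was not called. None of the 10 was called with CAPH2 or SMC2, and the medians were 0.45, 0.38 and 0.20 for SMC1, CAPH2 and SMC2. Of 19 other genes of streak, mesoderm and endoderm 18 were tested. Cdx2 (3.00), a posterior and trophoblast factor, Frzb (2.31) and Nog (1.08), secreted inhibitors of Wnt and BMP, and Sox17 (1.33), an endoderm factor with only 8 counts in GFP, rose with SMC1. Fgf17 (-1.14) and Tbx3 (-2.81), a T-box factor that ESCs also use, fell, and the median was 0.22. Cdx2 was the only gene of this list called with CAPH2 (1.53) and with SMC2 (1.37), and the medians were 0.082 and -0.051.

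**Figure D4:**
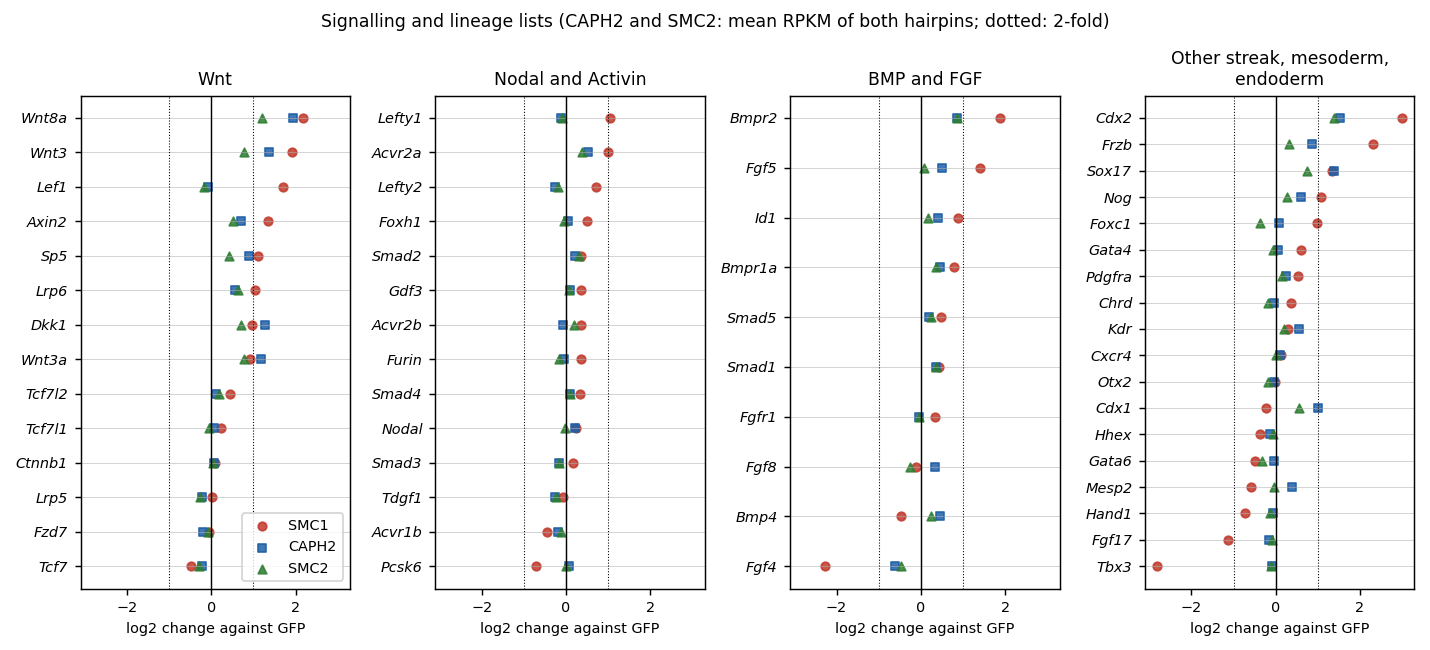
Log2 change against GFP (x axis) of the tested genes of the 4 lists (rows) for SMC1, for the mean of the CAPH2 hairpins and for the mean of the SMC2 hairpins, with dotted lines at 2-fold. Wnt8a lies past 2-fold in all 3 comparisons at 2.17, 1.93 and 1.20, while of the Nodal and Activin genes Lefty1 alone was called.

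Markers of other cell states moved in the SMC1 library beside the members. Of 6 ESC markers 5 fell (Sox2, Nanog, Zfp42, Esrrb and Klf4), and the summed RPKM of the list was 1182 with SMC1 against 2161 to 2568 in the other 5 libraries. Of 13 extraembryonic endoderm markers, a tissue that also expresses Foxa2, Eomes, Gsc, Lhx1 and Cer1, 11 were tested, Sox17, Dab2, Col4a1 and Col4a2 rose and Lama1 fell. The sum was 396 against 236 to 288, and Afp and Ttr, which define the mature visceral layer, had 2 counts or fewer in every library. Of 7 trophectoderm markers, a tissue that also expresses Eomes, 6 were tested, Cdx2, Gata3, Krt8 and Krt18 rose and Tfap2c fell, with a sum of 285 against 127 to 172, and Elf5 had 0 or 1 count. Pax6 and Nes rose among 5 neural markers, with a sum of 139 against 106 to 122. Of 9 fibroblast markers 7 were tested and Col1a2, Col3a1, Prrx1 and Twist2 rose, with a sum of 93.2 against 46.0 to 73.1, while of the 2 untested genes Lum had 5 counts or fewer and Dcn had 1 count in GFP, 19 with SMC1 and 5 to 7 in the condensin libraries. In the CAPH2 and SMC2 comparisons Cdx2 was called higher with both targets and Prrx1 with SMC2, and no other marker was called. The part of these cell states in the changes of the members was not tested.

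For each judged member the 3 genes most like it were found by Pearson correlation of log2 RPKM over the 6 libraries. This is a description. With 6 points that share their library scaling and a SMC1 library that stands apart, many genes reach a high value. The value over the 5 other libraries is given as r without SMC1, and was between 0.944 and 0.998 for the genes named. Those genes were picked by a correlation that includes these 5 libraries, so this value is no separate check. Mesp1 was most like Pcna (0.998, 0.989 without SMC1), Cyp26a1 (0.998, 0.997 without) and Ripply1 (0.996, 0.961 without), and 1612 of 12279 genes had an r over 0.9 with it. The correlation ignores the size of a change: Pcna had an RPKM of 333 in GFP and 266 with SMC1. Cyp26a1 degrades retinoic acid and Ripply1 is a repressor that partners Tbx6 in somite formation. T was most like Lipo3 (0.982), Pter (0.975) and Bfar (0.975), with 96 genes over 0.9. Eomes was most like Tbc1d15, Dnajc2 and Zfp870 (0.996 to 0.999), Lhx1 like Agk, Cryzl1 and Ndufaf5 (0.991 to 0.997) and Tbx6 like Oas3, Snrnp70 and Cep85 (0.996 to 0.997). Evx1 was most like Tank (0.996), Dipk1a (0.981) and Ctsl (0.974), Foxa2 like Stk3, Yipf1 and Ttc23 (0.982 to 0.988) and Gsc like Pnmal2, Zfp580 and Ybx2 (0.977 to 0.988). Mixl1, whose level moved least, had Zfp36l2 (0.998), Jtb (0.986) and Egr1 (0.947), and only 13 genes over 0.9.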

How the data were processed

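RNA-seq was made from V6.5 ESCs in 6 libraries. The authors aligned reads with Bowtie (-e 70 -k 1 -m 2 -n 2) to mm9, so reads from near-identical copies can be lost, and counted exonic reads with the RPKM_count program, version 2.3.5. The deposited files hold raw counts and RPKM for 26073 RefSeq rows and counts for 92 ERCC rows. RPKM as deposited is relative to exon length and library size (18823247 to 23324537 reads) and not to the ERCC RNAs. A symbol was found by accession for 25353 rows and by position in GENCODE for 698, and 22 rows had none. The row with the most counts stood for a gene. The members and lists were chosen with earlier results of these data known. Named genes were the 10 members, the 3 genes most like each, the knockdown targets and, from the lists, genes called with SMC1 and the 2 with the most counts. Dkk1, Nodal, Mesp2 and the Cdx2 and Prrx1 calls with condensin hairpins were added after their values were seen.

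Changes against GFP were ratios of counts per library read, which equal the RPKM ratios, with no pseudocount, for genes with a mean of at least 10 counts over the 6 libraries. SMC2 was tested against CAPH2 with edgeR 4.0.16 (TMM, quasi-likelihood, Benjamini-Hochberg over all genes) in R 4.3.3, for genes with a mean of at least 10 counts over the 4 libraries. The scripts were tested on simulated data. Alternatives were other scalings, pseudocounts, filters and rows, DESeq2 1.42.0, a replicate block and leaving out each hairpin. Other steps used Python 3.11.15 and scipy 1.17.1. Groups came from the sample titles.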

Additional observations from a re-analysis of the deposited data

How the results depend on the processing

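Over the alternatives, no change of a member against GFP that was called reversed. Of 315 values of members under an alternative, 278 moved by less than the spread between hairpins or the counting interval (in SMC2 against CAPH2, stayed on their side of the threshold), 33 moved by more, and 4 passed the threshold that had not. Part of the 278 was fixed in advance. A filter on counts or RPKM leaves a member's ratio to GFP unchanged. Leaving out 1 of 2 hairpins moves their mean by less than the SD between them. The log2 change of Lhx1 with CAPH2 was 0.13, but 0.61 without CAPH2 #1 and -0.58 without CAPH2 #2. A small move could still cross 2-fold. Under ERCC scaling the mean of Evx1 with CAPH2 (log2 change 1.08) and of Foxa2 with SMC2 (1.05) came over it. Tbx6 with SMC1 (-0.90) came under it. The mean of T with CAPH2 was 0.94 with a pseudocount of 1 RPKM. With GFP and SMC1 at 1 library each, the spread between cultures was not measured. Foxa2, with 8 counts in GFP, and Mesp1, with 3 counts with SMC1, have the widest counting intervals of the judged members in that comparison.

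Scaling to ERCC counts gave 6066 genes higher and 388 lower with SMC1, of 14361 tested. With CAPH2 it gave 119 genes higher (3 members) and 16 lower, and with SMC2 1022 genes higher and 4 lower. A pseudocount of 1 RPKM gave 685 genes higher and 677 lower with SMC1, 2 higher (0 members) and 4 lower with CAPH2, and 2 higher and 5 lower with SMC2. It brought Foxa2 and Tbx6 under 2-fold with SMC1, to log2 changes of 0.56 and -0.64. A pseudocount of 0.1 RPKM gave 49 genes higher with CAPH2 and 40 with SMC2. Requiring an RPKM of at least 1 in GFP, as the authors did, left 12199 genes. Of these, 784 were higher with SMC1 (1 member, T), 10 with CAPH2 (0 members) and 14 with SMC2. Foxa2 and Evx1 are then not tested. Calls on a single hairpin ranged from 156 to 405 genes higher, 76 to 258 lower and 1 to 3 members higher for CAPH2, and from 174 to 208 higher and 98 to 195 lower for SMC2.

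In SMC2 against CAPH2, 6 genes were higher with SMC2 with no filter and 5 with DESeq2. No source used here says whether hairpins of the same number shared a culture. The deviations of same-numbered libraries from their group means had a correlation of 0.055. This value cannot settle the question, because each library carries a different hairpin and the crossed value (-0.055) is its mirror image by construction. The replicate block gave 18 genes higher and 15 lower, among the latter T (adjusted p = 0.00893, edgeR). Over the alternatives other than leaving out a hairpin the adjusted p of T ranged from 0.00893 to 1.00. Leaving out a hairpin gave 0 to 97 genes higher and 1 to 231 lower, the most without CAPH2 #2. The cause of these differences was not tested.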
